A study of Saccharomyces cerevisiae with 6 samples.

Results

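The outer 20 kb of the 32 chromosome ends of budding yeast were described in poly(A) RNA from 3 genotypes. Members were all bins of 50 bases that held a number and lay within 20 kb of either end of a chromosome, the right end being the last bin of that chromosome. They numbered 8604 of 229306 bins with a number, 1388 ORF and 2117 non-ORF bins at 0 to 10 kb and 2450 ORF and 2649 non-ORF bins at 10 to 20 kb. A bin counted as ORF where the table's annotation placed an open reading frame on either strand. Each genotype had 2 libraries: the hst3 hst4 double deletion (Δhst3::HygMX and Δhst4::NatMX), the rtt109 deletion (∆rtt109::Kan) and wild type. The mutants are called hst3 hst4 cells and rtt109 cells here. All 3 strains also carried a bar1 deletion marked with HIS3, URA3::GDP-TK(7x), which is a thymidine kinase cassette, and a nucleoside transporter gene at AUR1c. Further marker alleles shared by all were his3-11 15, trp1-1, leu2-3 112, can1-100 and ura3-1. By the labels the hst3 hst4 strain was MATalpha and the other strains were MATa. The hst3 hst4 strain and wild type had Rpb3-3HA::TRP and ade2-1::ADE2, whereas the rtt109 strain lacked both and was the only one labelled GAL, psi+ and RAD5+, so the deletion and this background cannot be told apart in it. Cells grew exponentially in rich medium, and total RNA of fission yeast was added to each extract at a mass ratio of 10 to 1 as a spike-in. Because the spike-in was added by RNA mass, the values give poly(A) RNA relative to total RNA and not RNA per cell, and fewer cells with a transcript and less of it per cell cannot be told apart.

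Rtt109 is the acetyltransferase that places acetyl groups on lysine 56 of newly made histone H3, and the sirtuins Hst3 and Hst4 remove them. Subtelomeres hold repeated X and Y' elements, genes in near-identical copies and genes used under particular growth conditions, such as those for maltose, vitamin synthesis or cell adhesion. Silencing proteins of the Sir complex, which includes the sirtuin Sir2, bind at the chromosome ends and lower the transcription of nearby genes.

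Of the subtelomeric genes, 4 rose in both deletions against wild type, of which YPS6, SNZ2 and YOL163W were under the filter level in wild type and were tested only through their level in the mutants. Their start regions are shown because they are the genes that both comparisons share. Both comparisons use the same wild-type libraries, and the share of all tested genes that passed in both was not computed. Each start region is 300 bases of the reference assembly R64, 250 before and 50 after the first base of the start codon, read on the gene's own strand. Capitals mark the stress response element AGGGG or its complement CCCCT. HXK1 lies at chr6:255000-255299 on the minus strand, YPS6 at chr9:432062-432361 on the minus strand, SNZ2 at chr14:13017-13316 on the plus strand and YOL163W at chr15:9347-9646 on the plus strand.
HXK1: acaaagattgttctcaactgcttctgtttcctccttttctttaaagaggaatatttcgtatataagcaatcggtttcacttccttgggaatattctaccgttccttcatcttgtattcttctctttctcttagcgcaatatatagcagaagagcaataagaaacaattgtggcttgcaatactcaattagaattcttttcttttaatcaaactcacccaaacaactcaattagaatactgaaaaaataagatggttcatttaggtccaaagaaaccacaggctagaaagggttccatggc
YPS6: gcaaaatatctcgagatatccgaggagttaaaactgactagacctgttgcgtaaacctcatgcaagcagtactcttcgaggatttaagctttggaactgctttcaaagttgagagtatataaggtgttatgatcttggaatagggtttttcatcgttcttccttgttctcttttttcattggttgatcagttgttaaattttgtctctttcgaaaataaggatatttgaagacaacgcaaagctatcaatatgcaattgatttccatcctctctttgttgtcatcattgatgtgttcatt
SNZ2: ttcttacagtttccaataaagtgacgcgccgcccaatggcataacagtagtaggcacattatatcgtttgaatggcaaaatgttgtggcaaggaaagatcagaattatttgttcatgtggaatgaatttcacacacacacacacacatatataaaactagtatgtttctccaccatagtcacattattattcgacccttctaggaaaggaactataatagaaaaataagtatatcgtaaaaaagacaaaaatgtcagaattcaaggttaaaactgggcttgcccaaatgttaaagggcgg
YOL163W: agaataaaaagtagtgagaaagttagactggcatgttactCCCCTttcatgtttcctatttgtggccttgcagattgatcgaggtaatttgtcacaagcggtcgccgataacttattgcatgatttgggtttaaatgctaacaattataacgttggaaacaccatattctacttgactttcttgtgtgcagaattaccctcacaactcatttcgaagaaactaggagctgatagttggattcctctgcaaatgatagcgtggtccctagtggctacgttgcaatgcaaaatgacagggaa
YOL163W alone of the 4 held the element in this window, starting 210 bases before the start codon. Searched on both strands, it was in 1297 of 6001 promoters of protein-coding genes (21.6%), in 48 of 221 promoters of subtelomeric genes (21.7%) and in 6 of the 12 promoters of subtelomeric genes past the threshold in a comparison with wild type. The 12 include YPS6, SNZ2, SNZ3, YOL163W and YOL160W, which passed the filter only through their mutant levels. The share among the 12 was not tested and is no measure of enrichment. A match is a match of letters only.

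In the libraries as a whole, spike-in scaled coverage summed to between 474278 and 784679, and the outer 20 kb held 0.636% and 0.645% of it in hst3 hst4 cells, 0.806% and 0.694% in rtt109 cells and 0.535% and 0.504% in wild-type cells. The commonest value above 0, called the step here, ran between 0.00397 and 0.0124 in the 6 libraries, and levels near it rest on very few reads. RTT109 had 0.00123 and 0.00342 units in its deletion, against 0.763 and 0.830 in wild-type cells, and HST3 had 0.0131 and 0.00999 in hst3 hst4 cells, against 1.32 and 1.36 in wild-type cells. HST4 had 0.0617 and 0.00648 in that deletion, against 0.470 and 0.672 in wild-type cells. The hst3 hst4 strain is labelled mating type alpha, but STE2, the alpha-factor receptor of a cells, had 22.6 and 23.4 there, against 15.5 and 30.2 in wild-type cells, which goes against that label. STE3, the receptor of alpha cells, had 0.0209 and 0.0186 in the hst3 hst4 libraries, against 0.00298 and 0.0163 in wild-type cells, while MF(ALPHA)1, which encodes the alpha pheromone, had 0.327 and 0.345, against 0.0375 and 0.0271. No label says that replicates came from separate cultures, so p-values measure only the spread between these libraries.

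The files held a letter in place of a value in 4196 of the 12800 subtelomeric bins (32.8%), against 3.28% of the bins farther in. The share was 45.2% at 0 to 10 kb, with 48.4% of ORF and 42.9% of non-ORF bins. It was 20.3% at 10 to 20 kb, with 18.1% of ORF and 22.3% of non-ORF bins. By single kb it was highest at 2 to 3 kb (59.7%) and lowest at 19 to 20 kb (8.44%). Of the bins of Y' elements, the repeats with a helicase gene, 976 of 1032 (94.6%) held the letter, as did 36.9% of the bins of X core elements, which every end can carry. Telomeric repeats were masked in 3.77% of 53 bins, but 37 of the 51 with a number were at 0 in every column. Between ends the letter took between 0% (right end of chromosome 6) and 96.5% (left end of chromosome 10), and over 50% at 8 ends.

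A further 1601 numeric bins (18.6%) were at 0 in all 12 spike-in columns, against 0.551% farther in. Of these, 450 lay in 5 unbroken runs of at least 20 bins, which covered 22.5 kb at 4 ends. The longest was on the right arm of chromosome 14, at 765301 to 772950 in the table's coordinates, and the next covered 451 to 6350 on the left arm of chromosome 7. Whether such a run is a stretch without RNA or one that the strain or the mapping lacks was not tested. The table's genome build is not given in the sources used here.

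**Figure D1:**
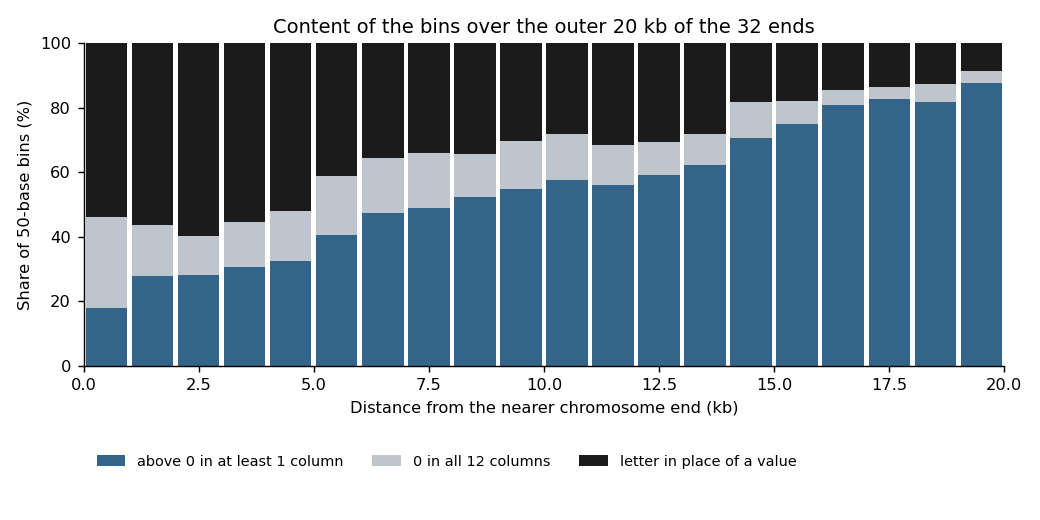
Share of 50-base bins (%, vertical axis) in each kb from the nearer chromosome end (horizontal axis, kb), over all 32 ends; stacked bars stand for bins above 0 in at least 1 column, bins at 0 in all 12 columns and bins with a letter. Bins above 0 make up 18.0% of the outermost kb and 87.8% of the kb at 19 to 20.

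Coverage climbed with distance from the end in all 3 genotypes. ORF bins at 0 to 10 kb averaged 0.320 ± 0.039 units in hst3 hst4 cells, 0.296 ± 0.022 in rtt109 cells and 0.281 ± 0.051 in wild-type cells (SD, n = 2 each, both strands summed). At 10 to 20 kb they averaged 1.25 ± 0.041 in hst3 hst4 cells, 1.16 ± 0.089 in rtt109 cells and 1.06 ± 0.079 in wild-type cells. The genotypes overlapped at 0 to 10 kb, and at 10 to 20 kb both hst3 hst4 libraries lay above wild type while the rtt109 libraries overlapped it. By contrast, ORF bins farther in averaged 3.66 ± 0.33 in hst3 hst4 cells, 2.81 ± 0.50 in rtt109 cells and 3.77 ± 0.44 in wild-type cells. Non-ORF bins at 0 to 10 kb averaged 0.123 ± 0.033 in hst3 hst4 cells, 0.0969 ± 0.0047 in rtt109 cells and 0.0964 ± 0.0060 in wild-type cells, and at 10 to 20 kb 0.289 ± 0.083 in hst3 hst4 cells, 0.216 ± 0.014 in rtt109 cells and 0.230 ± 0.00997 in wild-type cells. The hst3 hst4 libraries differed most between themselves in these bins, 0.348 against 0.230 at 10 to 20 kb. Medians were lower than means, with 0.0580 and 0.0619 in ORF bins at 0 to 10 kb in hst3 hst4 cells, 0.0462 and 0.0526 in rtt109 cells and 0.0437 and 0.0434 in wild-type cells.

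**Figure D2:**
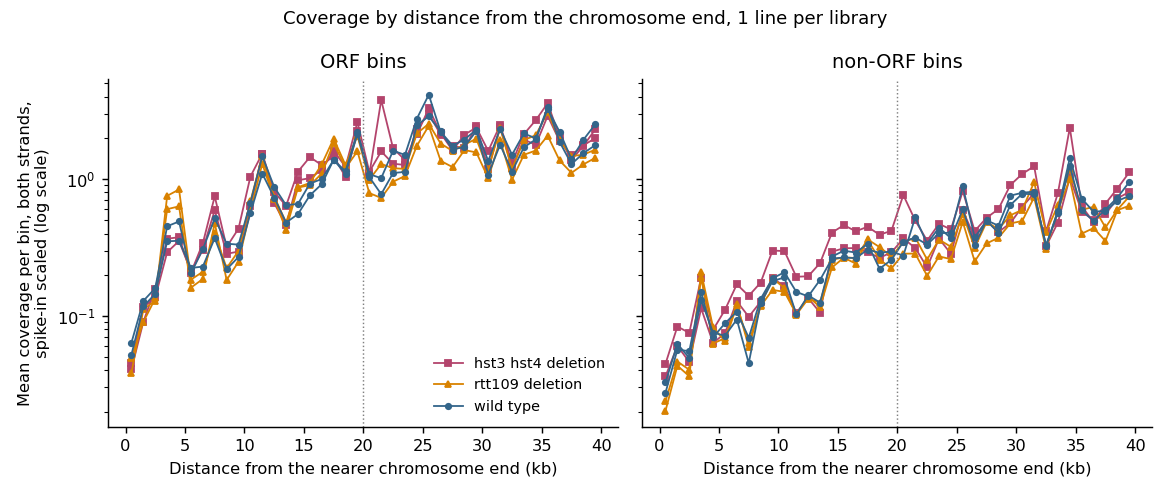
Mean coverage per bin (spike-in scaled, both strands summed, log scale) by distance from the nearer chromosome end in steps of 1 kb out to 40 kb, for ORF bins (left) and non-ORF bins (right); each line is 1 library and the dotted line marks 20 kb. All 6 lines climb over the outer 20 kb, and the rtt109 libraries stand above the others in ORF bins at 4 to 5 kb, with 0.632 and 0.839. High bins carry those means. The medians there were 0.00771 and 0.0263 in rtt109 cells, 0.0193 and 0.0124 in hst3 hst4 cells and 0.00795 and 0.00543 in wild-type cells.

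Relative to the rest of the genome in the same library, subtelomeric coverage was higher in both deletions than in wild-type cells, in coding and noncoding bins and in both zones. This ratio does not depend on the spike-in. In ORF bins at 10 to 20 kb it was 32.9% and 35.7% of the level farther in for the hst3 hst4 deletion, 44.5% and 38.6% for the rtt109 deletion and 28.9% and 27.3% for wild type. In ORF bins at 0 to 10 kb it was 8.94% and 8.53% for the hst3 hst4 deletion, 11.4% and 9.82% for the rtt109 deletion and 7.08% and 7.77% for wild type. Both deletions lay above both wild-type libraries in each case, but much of the difference of the outer zone in the rtt109 deletion came from 1 end. Without the right end of chromosome 6, an alternative added after seeing the data, ORF bins at 0 to 10 kb had 8.11% and 7.71% for the hst3 hst4 deletion, 8.25% and 6.60% for the rtt109 deletion and 6.10% and 6.57% for wild type, and the log2 difference of the rtt109 deletion was 0.22 against 0.51 with all ends.

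Non-ORF bins went the same way. At 0 to 10 kb the ratio was 7.13% and 6.74% in hst3 hst4 cells, 8.31% and 6.77% in rtt109 cells and 5.46% and 4.84% in wild-type cells. At 10 to 20 kb it was 16.9% and 15.4% in hst3 hst4 cells, 18.3% and 15.3% in rtt109 cells and 12.9% and 11.7% in wild-type cells. As log2 differences from wild type, the 4 zones were higher by 0.51, 0.56, 0.55 and 0.45 in rtt109 cells (ORF bins near and far, then non-ORF bins near and far) and by 0.24, 0.29, 0.43 and 0.39 in hst3 hst4 cells. Each of these 8 exact two-sided permutation tests gave p = 0.333, the smallest that 2 libraries against 2 allow, so none can pass a threshold of 0.05. Averaged as log2 of each bin instead, which gives high bins less weight, the difference was 0.10 for non-ORF bins at 0 to 10 kb in hst3 hst4 cells, and in rtt109 cells 0.30 for ORF and 0.28 for non-ORF bins at 0 to 10 kb and 0.28 for non-ORF bins at 10 to 20 kb. In bins at least 200 bases from any ORF it was 0.35 at 0 to 10 kb and 0.25 at 10 to 20 kb in rtt109 cells. In the rtt109 deletion the denominator fell short of wild type (2.81 against 3.77 units in ORF bins), whereas the level of the subtelomeric ORF bins averaged 1.16 against 1.06 units at 10 to 20 kb. In non-ORF bins the denominator was 1.30 against 1.87 units. The subtelomeric non-ORF level itself was not higher, with 0.0969 against 0.0964 at 0 to 10 kb and 0.216 against 0.230 at 10 to 20 kb.

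**Figure D3:**
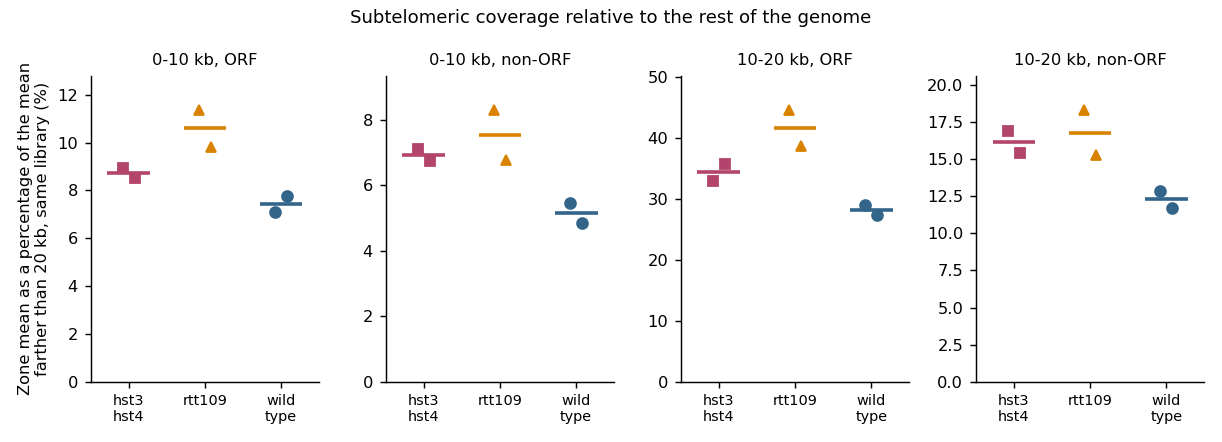
Mean coverage of each subtelomeric zone as a percentage of the mean of the same class of bins farther than 20 kb from an end, in the same library (vertical axes start at 0); points are libraries and bars their mean. In all 4 panels the points of both deletions stand above the 2 wild-type points.

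The ends differed from each other far more than the genotypes did. The left end of chromosome 13 had the highest mean, 2.54 and 2.57 units in hst3 hst4 cells, 2.03 and 2.22 in rtt109 cells and 2.29 and 2.19 in wild-type cells. The right end of chromosome 1 had the lowest, between 0.000851 and 0.00277 in the 6 libraries, with 102 numeric bins left of 400. The 5 ends with the most summed coverage held 54.0% of the coverage summed over the numeric bins of all ends. An end with more numeric bins weighs more in that share. The median of the end means was 0.258. The left end of chromosome 6 had 0.320 and 0.401 in hst3 hst4 cells, 0.163 and 0.175 in rtt109 cells and 0.140 and 0.170 in wild-type cells, and the right end of chromosome 9 had 1.10 and 1.07 in hst3 hst4 cells, 1.24 and 1.42 in rtt109 cells and 0.786 and 0.892 in wild-type cells. The right end of chromosome 4 was lower in rtt109 cells, with 0.216 and 0.249, than in wild-type cells, with 0.421 and 0.423, while the hst3 hst4 deletion had 0.455 and 0.398. The ends of chromosomes 6, 9 and 4 were singled out after their values were seen. A deposited replication timing score, of unstated unit and taken from another publication per the file header, had a median of 63.2 over bins above 0 at 0 to 10 kb, 51.4 at 10 to 20 kb and 47.4 farther in. Bins with a score of 0 were left out of these medians. They were 40.1% of numeric bins at 0 to 10 kb, 10.3% at 10 to 20 kb and 1.01% farther in.

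Of the 222 named protein-coding genes whose midpoint lay within 20 kb of an end, 199 had usable bins, 86 at 0 to 10 kb and 113 at 10 to 20 kb. A gene's level is its mean sense coverage per bin, which is a value per length. The median gene at 0 to 10 kb had 0.0209 and 0.0157 units in hst3 hst4 cells, 0.0182 and 0.0215 in rtt109 cells and 0.0117 and 0.00707 in wild-type cells, and 32 members were at 0 in every library. At 10 to 20 kb the median gene had 0.332 and 0.292 in hst3 hst4 cells, 0.229 and 0.295 in rtt109 cells and 0.194 and 0.227 in wild-type cells, against medians from 1.06 to 1.64 for genes farther in. The filter on the lowest 10% of genes left out 107 of the 199 members (53.8%), against 8.46% of other genes, and 92 were tested, 24 of them at 0 to 10 kb. A member that passed only because it was high in a mutant had to differ, so the counts describe the 92 only. That holds for YPS6, SNZ2, SNZ3, YOL163W and YOL160W, whose wild-type means lay under the filter level of 0.177 units.

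Among the 92 tested members, 10 passed the threshold in rtt109 cells against wild type, 9 higher and 1 lower, where 3.44% of all 5211 tested genes did (2.49% higher and 0.94% lower). In the hst3 hst4 deletion 6 passed, all of them higher, where 2.48% of all genes did (2.34% higher and 0.134% lower). Among these calls, YPS6, SNZ2 and YOL163W in both deletions passed the filter only through their mutant levels. The same holds for SNZ3 in rtt109 cells and YOL160W in hst3 hst4 cells. The counts set beside the shares of all genes are therefore no measure of enrichment. With each library centred on its median, 11 passed in rtt109 cells, all higher, and FDC1 was not among them. Libraries of the 2 groups did not overlap for 27 members higher and 27 lower in rtt109 cells, against 11.5% and 48.6% of all tested genes. In the hst3 hst4 deletion they did not overlap for 28 higher and 10 lower, against 20.9% and 8.9%. The median log2 fold change of the tested members was 0.01 in rtt109 cells, where that of all genes was -0.37, and 0.22 in hst3 hst4 cells, where that of all genes was 0.04. All calls are from limma with Benjamini-Hochberg adjustment at 0.05, and fold changes are on the scale of log2 of coverage plus 0.0587.

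Those calls rest on a spread shared between genes and on all 6 libraries. Without either rtt109 library no member passed in any comparison, also not in hst3 hst4 cells, and without replicate 2 of wild type 2 passed in rtt109 cells. With a pseudocount 10 times larger, or with no filter, no member passed.

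**Figure D4:**
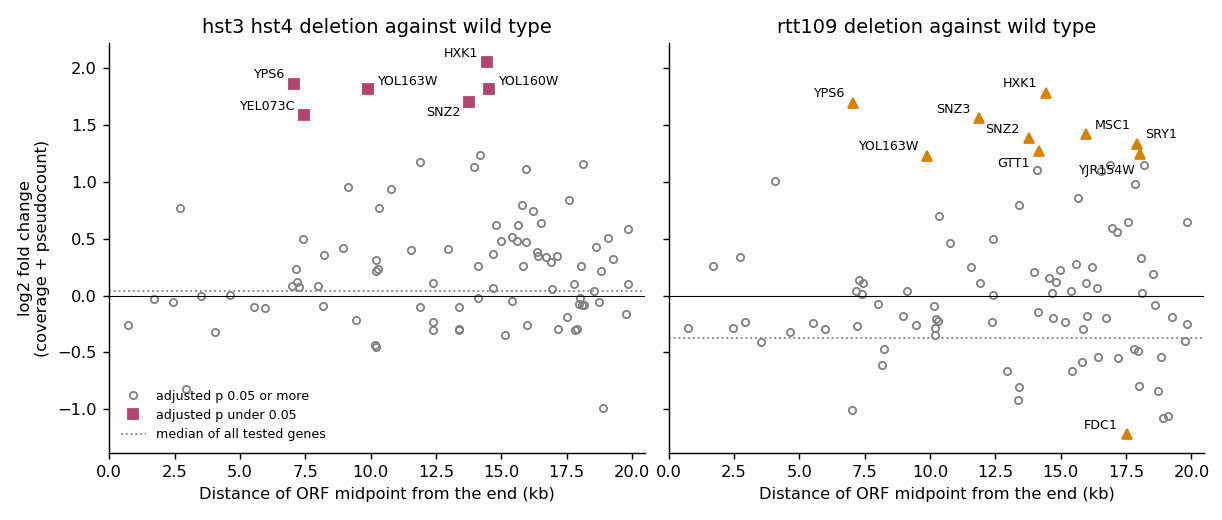
log2 fold change of the 92 tested subtelomeric genes (vertical axis) by distance of the ORF midpoint from the end (horizontal axis, kb), for the hst3 hst4 deletion (left) and the rtt109 deletion (right) against wild type; filled symbols passed an adjusted p of 0.05, and the dotted line is the median of all tested genes. HXK1, YPS6, SNZ2 and YOL163W are filled in both panels, and FDC1 is the only filled point under 0.

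HXK1, hexokinase 1, which phosphorylates glucose and fructose, lies 14.4 kb from the right end of chromosome 6 (253601 to 255100 in the table). It had 2.49 and 2.11 units in hst3 hst4 cells, 2.57 and 1.39 in rtt109 cells and 0.487 and 0.529 in wild-type cells. All 4 mutant libraries stood above both wild-type libraries. The log2 fold change was 2.05 ± 0.37 (SE, adjusted p = 0.000468) in hst3 hst4 cells and 1.78 ± 0.37 (adjusted p = 0.00234) in rtt109 cells.

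YPS6, an aspartyl protease of the yapsin family, lies 7.05 kb from the right end of chromosome 9 (430501 to 432200). It had 0.710 and 0.484 units in hst3 hst4 cells, 0.593 and 0.448 in rtt109 cells and 0.115 and 0.122 in wild-type cells. Again no mutant library reached down to wild type, and the log2 fold change was 1.86 ± 0.37 (adjusted p = 0.00119) in hst3 hst4 cells and 1.70 ± 0.37 (adjusted p = 0.00328) in rtt109 cells.

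SNZ2 and SNZ3 encode proteins of pyridoxine (vitamin B6) synthesis and are near-identical copies on different chromosomes. SNZ2, on the left arm of chromosome 14 (13301 to 14250), had 0.395 and 0.339 units in hst3 hst4 cells, 0.187 and 0.412 in rtt109 cells and 0.0795 and 0.0641 in wild-type cells, and its log2 fold change was 1.71 ± 0.38 (adjusted p = 0.0039) in hst3 hst4 cells and 1.38 ± 0.38 (adjusted p = 0.0263) in rtt109 cells. SNZ3, on the left arm of chromosome 6, had 0.411 and 0.411 in hst3 hst4 cells, 0.459 and 0.666 in rtt109 cells and 0.179 and 0.123 in wild-type cells. It rose in rtt109 cells (log2 1.56 ± 0.37, adjusted p = 0.00783), and the value in hst3 hst4 cells was 1.17 (adjusted p = 0.0875). In R64 their coding sequences of 897 bases share 891 positions, and most of their bins held the letter: SNZ2 rests on 5 bins and SNZ3 on 4. How reads were split between the copies is not given in the sources used here, so the pair should be read as uncertain.

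YOL163W, of unknown function, lies 9.9 kb from the left end of chromosome 15 (9601 to 10200). It had 0.503 and 0.407 units in hst3 hst4 cells, 0.290 and 0.274 in rtt109 cells and 0.0930 and 0.0803 in wild-type cells, and no library of one group entered the range of another. Its log2 fold change was 1.82 ± 0.36 (adjusted p = 0.00138) in hst3 hst4 cells and 1.23 ± 0.36 (adjusted p = 0.0469) in rtt109 cells.

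GTT1, a glutathione transferase, and MSC1, annotated as an enhancer of double-strand break repair, rose in rtt109 cells and lay above wild type in all 4 mutant libraries. GTT1 had 2.59 and 2.36 units in hst3 hst4 cells, 2.31 and 2.78 in rtt109 cells and 1.02 and 1.01 in wild-type cells, with a log2 fold change of 1.27 ± 0.36 in rtt109 cells (adjusted p = 0.0361) and 1.24 ± 0.36 in hst3 hst4 cells (adjusted p = 0.0548). MSC1 had 1.79 and 1.14 in hst3 hst4 cells, 2.46 and 1.28 in rtt109 cells and 0.676 and 0.584 in wild-type cells. Its log2 fold change was 1.42 in rtt109 cells (adjusted p = 0.0244) and 1.12 in hst3 hst4 cells (adjusted p = 0.159).

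SRY1, an ammonia-lyase of threo-3-hydroxy-L-aspartate, stood apart in rtt109 cells. It had 1.74 and 1.86 units in hst3 hst4 cells, 7.56 and 4.29 in rtt109 cells and 2.07 and 2.39 in wild-type cells, a log2 fold change of 1.34 ± 0.37 in rtt109 cells (adjusted p = 0.0311). The hst3 hst4 libraries lay just under wild type, with a log2 fold change of -0.30, and the difference between the deletions passed the threshold (log2 -1.63 ± 0.37, adjusted p = 0.0117). YJR154W, of unknown function, had 0.194 and 0.297 in hst3 hst4 cells, 0.464 and 0.612 in rtt109 cells and 0.194 and 0.188 in wild-type cells, and rose in rtt109 cells (log2 fold change 1.24, adjusted p = 0.0469).

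FDC1 and PAD1 are neighbours near the right end of chromosome 4 and act together in the decarboxylation of phenylacrylic acids, Pad1 making the cofactor of Fdc1. FDC1 had 1.35 and 1.31 units in hst3 hst4 cells, 0.579 and 0.670 in rtt109 cells and 1.43 and 1.63 in wild-type cells. It fell in rtt109 cells, with a log2 fold change of -1.22 ± 0.36 (adjusted p = 0.0488). PAD1 had 1.48 and 2.06 in hst3 hst4 cells, 0.538 and 0.562 in rtt109 cells and 0.890 and 1.64 in wild-type cells. Its value against wild type in rtt109 cells was -1.06 (adjusted p = 0.122), and it was higher in hst3 hst4 cells than in rtt109 cells (log2 1.57 ± 0.38, adjusted p = 0.0181).

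YOL160W and YEL073C, both of unknown function, passed in hst3 hst4 cells. YEL073C, 7.45 kb from the left end of chromosome 5, had 1.84 and 2.15 units in hst3 hst4 cells, 0.545 and 0.845 in rtt109 cells and 0.701 and 0.555 in wild-type cells, a log2 fold change of 1.59 ± 0.37 against wild type (adjusted p = 0.00682). YOL160W, on the left arm of chromosome 15, had 0.773 and 0.280 in hst3 hst4 cells, 0.123 and 0.0965 in rtt109 cells and 0.0961 and 0.0878 in wild-type cells. Its hst3 hst4 libraries differed from each other more than the rtt109 libraries differed from wild type, and the log2 fold change was 1.82 ± 0.39 (adjusted p = 0.00265). Both also stood above the rtt109 deletion, by log2 1.47 (adjusted p = 0.0254) for YEL073C and 1.66 (adjusted p = 0.0145) for YOL160W, and these with PAD1 and SRY1 were the 4 members past the threshold between the deletions, where 1.38% of all genes passed (0.787% higher and 0.595% lower in hst3 hst4 cells). When each library was centred on its own median, 1 member passed between the deletions, and it was lower in hst3 hst4 cells, against 3 higher and 1 lower on the spike-in scale.

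**Figure D5:**
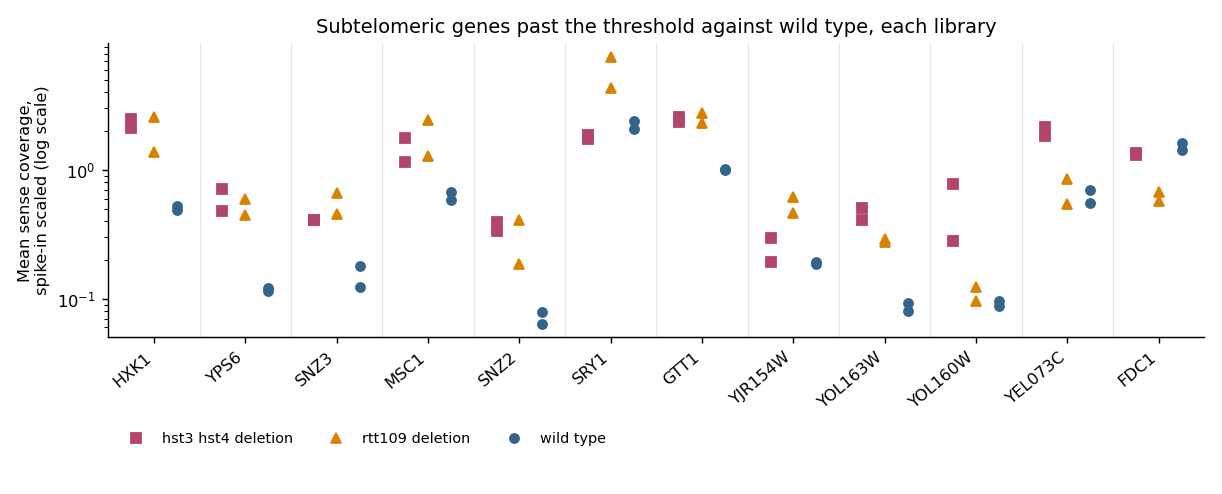
Mean sense coverage (spike-in scaled, log scale) of the 12 subtelomeric genes past the threshold against wild type, with each library as a point, in hst3 hst4 cells (squares), the rtt109 deletion (triangles) and wild type (circles). Both wild-type points are lowest for HXK1, YPS6, SNZ3, MSC1, SNZ2, GTT1, YOL163W and YOL160W, and the rtt109 deletion is lowest for FDC1.

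The gene families that fill subtelomeres were mostly too low or too masked to test. Of 19 subtelomeric PAU genes, which encode seripauperins of the cell wall, 13 had a value and none passed the filter. PAU15, the highest by the mean over the 6 libraries, had 0.0837 and 0.0594 units in hst3 hst4 cells, 0.0632 and 0.107 in rtt109 cells and 0.0167 and 0.00326 in wild-type cells. Both deletions lay above wild type for PAU15, over 5 bins. PAU3, named after its values were seen, was the highest of them in wild-type cells, with 0.0490 and 0.0425. It was lower in rtt109 cells, with 0.00385 and 0.00987, and overlapped wild type in hst3 hst4 cells, with 0.0333 and 0.0701. Of the listed YRF1 helicases of Y' elements, YRF1-7 alone had a value, and it was at 0 in every library over 68 bins. YEL077C, annotated as a Y' element helicase outside that list and chosen after its values were seen, had 0.1001 and 0.162 in hst3 hst4 cells, 0.0876 and 0.106 in rtt109 cells and 0.115 and 0.0943 in wild-type cells over 11 of its 70 bins, with overlapping groups.

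The 11 COS genes, which act in the sorting of membrane proteins to the vacuole, all had a value, and 5 were tested. None passed in either comparison, and their median log2 fold change was -0.23 in rtt109 cells, where that of all genes was -0.37, and 0.09 in hst3 hst4 cells, where it was 0.04. COS6, the highest, had 4.49 and 3.00 units in hst3 hst4 cells, 2.97 and 2.30 in rtt109 cells and 1.91 and 3.50 in wild-type cells, with overlapping groups.

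Of 10 subtelomeric maltose and isomaltose genes 3 were tested and none passed. MAL33, a transcription factor of maltose use, had 0.492 and 0.433 units in hst3 hst4 cells, 0.419 and 0.459 in rtt109 cells and 0.186 and 0.323 in wild-type cells. Both deletions lay above wild type and overlapped each other, but the log2 fold changes of 0.77 (adjusted p = 0.587) and 0.70 (adjusted p = 0.271) did not pass. Of 5 hexose genes HXK1 alone was tested.

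Among 8 genes of pyridoxine and thiamine synthesis, SNZ2 and SNZ3 were tested. THI12, which makes the pyrimidine of thiamine, was under the filter with 0.169 and 0.186 units in hst3 hst4 cells, 0.0713 and 0.0625 in rtt109 cells and 0.00298 and 0.00950 in wild-type cells, over 4 bins. It was picked for naming after its values were seen. THI5, THI11, THI12 and THI13 are near-identical copies, so their values are uncertain in the same way as SNZ2 and SNZ3. PHO89, a phosphate transporter also under the filter, had 0.140 and 0.139 in hst3 hst4 cells, 0.0825 and 0.294 in rtt109 cells and 0.0157 and 0.0225 in wild-type cells.

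The remaining families showed no member past the threshold. Aryl-alcohol and formate dehydrogenases had 6 tested of 8, with a median log2 fold change of -0.09 in rtt109 cells and 0.37 in hst3 hst4 cells, and ADH6 was their highest at 6.32 and 8.54 units in hst3 hst4 cells, 5.74 and 7.62 in rtt109 cells and 4.55 and 6.74 in wild-type cells. Iron and metal uptake genes had 2 tested of 4, of which ARN2, a siderophore transporter, had 0.291 and 0.319 in hst3 hst4 cells, 0.333 and 0.479 in rtt109 cells and 0.394 and 0.471 in wild-type cells. Arsenic resistance genes had 2 tested of 3. ARR1, their transcription factor, had 1.23 and 1.16 in hst3 hst4 cells, 0.774 and 0.857 in rtt109 cells and 0.912 and 1.78 in wild-type cells.

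FLO10, a flocculin of cell adhesion, was under the filter at 0.116 and 0.132 units in hst3 hst4 cells, 0.0971 and 0.0944 in rtt109 cells and 0.0683 and 0.0707 in wild-type cells, without overlap between the groups. VTH2, a copy of a vacuolar sorting receptor, had 0.114 and 0.0289 in hst3 hst4 cells, 0.0385 and 0.0417 in rtt109 cells and 0.0411 and 0.0561 in wild-type cells over 3 bins. HSP33, of the Hsp31 family, had 0.161 and 0.0588 in hst3 hst4 cells, 0.0906 and 0.0165 in rtt109 cells and 0.00795 and 0.00136 in wild-type cells. Wild type was the lowest group for FLO10 and HSP33, and the groups overlapped for VTH2. Of 25 general stress genes listed, HXK1 and MSC1 lie within 20 kb of an end, and both are described above.

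The 5 genes with the highest level all lay in the inner zone, and none of them passed. DLD3, a D-lactate dehydrogenase, had 10.1 and 11.7 units in hst3 hst4 cells, 12.5 and 12.8 in rtt109 cells and 8.94 and 8.20 in wild-type cells. ERG13, the HMG-CoA synthase of sterol synthesis, had 9.94 and 13.7 in hst3 hst4 cells, 7.48 and 11.2 in rtt109 cells and 11.1 and 10.8 in wild-type cells. The proteasome genes PRE4 and RPN12, on the right arm of chromosome 6 near HXK1, had log2 fold changes of 0.32 and 0.26 in hst3 hst4 cells and -0.18 and -0.29 in rtt109 cells. Both deletions lay above wild type for DLD3, both rtt109 libraries lay under wild type for RPN12 (5.11 and 5.25, against 5.33 and 7.56), and the other groups overlapped. With each library centred the log2 values of ARN2, ERG13, PRE4 and RPN12 in rtt109 cells were above 0.

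The 3 members with a value nearest to an end, PAU19 (0.324 kb), YFL068W (0.35 kb) and COS2 (0.65 kb), were at 0 in all 6 libraries over 1, 8 and 11 bins. Not all genes so near an end were at 0: AAD3, a putative aryl-alcohol dehydrogenase 0.724 kb from the right end of chromosome 3, had 0.222 and 0.271 units in hst3 hst4 cells, 0.273 and 0.209 in rtt109 cells and 0.253 and 0.367 in wild-type cells over 18 bins. It was chosen after its values were seen, and its groups overlapped. At the inner border, YMR315W had 1.65 and 1.68 units in hst3 hst4 cells, 1.52 and 2.00 in rtt109 cells and 1.40 and 0.843 in wild-type cells. Just past the border, YOR387C had 0.970 and 0.0259 in hst3 hst4 cells, 0.00350 and 0.00718 in rtt109 cells and 0.00434 and 0.00888 in wild-type cells, so 1 library carries its level, and KGD4, a subunit of the alpha-ketoglutarate dehydrogenase complex, had 5.79 and 3.06 in hst3 hst4 cells, 4.22 and 2.23 in rtt109 cells and 2.43 and 4.44 in wild-type cells.

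Runs of at least 4 numeric bins with no ORF on either strand gave 244 noncoding segments, or 488 strand values, of which 112 were at 0 in every library and 271 passed the filter. The median strand value was 0.0152 and 0.0155 units in hst3 hst4 cells, 0.00823 and 0.0104 in rtt109 cells and 0.0111 and 0.00673 in wild-type cells, close to the step of the values. No subtelomeric segment passed in either comparison, and none of the 8537 tested in the genome did (0% in the background). At an unadjusted p under 0.05, 48 of the 271 were counted in hst3 hst4 cells, 46 of them higher, where 7.8% of all segments were (7.41% higher), and 26 in rtt109 cells, where 8.26% were. Their median log2 fold change was 0.37 in hst3 hst4 cells, against 0.13 over all segments, and -0.12 in rtt109 cells, against -0.41 over all, but 0.24 there with each library centred. Without replicate 1 of the hst3 hst4 deletion its median was 0.13, and without replicate 2 it was 0.56. The filter used the mean over all 6 libraries, so a segment that passed only through its mutant level had to differ. How many of the 271 did so was not computed. Their counts and medians beside those of all segments are therefore no measure of enrichment.

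The segments with the smallest p included both flanks of PHO89 on its own strand, so their coverage cannot be told apart from PHO89 transcripts that run past the annotated ORF. The flank at 796551 to 796800 of chromosome 2 had 0.133 and 0.0520 units in hst3 hst4 cells, 0.0601 and 0.0816 in rtt109 cells and 0.00556 and 0.00651 in wild-type cells (unadjusted p = 0.000504 and 0.000824 for the hst3 hst4 and the rtt109 deletion, adjusted p = 0.163 and 0.364 by limma). The flank at 798601 to 800150 had 0.0253 and 0.0251 in hst3 hst4 cells, 0.0157 and 0.0174 in rtt109 cells and 0.00321 and 0.00263 in wild-type cells. In both, every mutant library stood above both wild-type libraries.

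Other segments named by the same rule lay on 3 further ends. On the Crick strand between TDA8 and YAL064W on chromosome 1 (18301 to 19400) the hst3 hst4 deletion had 0.128 and 0.125 units, the rtt109 deletion 0.0389 and 0.0284 and wild type 0.0163 and 0.0163, with log2 2.70 ± 0.42 in hst3 hst4 cells (adjusted p = 0.163). On the Watson strand between COS1 and DDI2 on chromosome 14 (10751 to 10950) the values were 0.0773 and 0.0495 in hst3 hst4 cells, 0.0559 and 0.140 in rtt109 cells and 0.00497 and 0.00679 in wild-type cells. Between AAD4 and YDL242W on chromosome 4, on the Watson strand, the rtt109 deletion was the low group, with 0.00551 and 0.00376, against 0.0369 and 0.0372 in wild-type cells, while the hst3 hst4 deletion had 0.0304 and 0.0336.

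By class of feature, bins of origins of replication (ARS) without an ORF averaged 0.308 and 0.213 units in hst3 hst4 cells, 0.124 and 0.126 in rtt109 cells and 0.144 and 0.144 in wild-type cells over 177 bins. X core elements averaged 0.0231 and 0.0283 in hst3 hst4 cells, 0.00927 and 0.0126 in rtt109 cells and 0.0124 and 0.00911 in wild-type cells over 118 bins at 20 ends, which is at most a few steps. The hst3 hst4 libraries were the higher ones in both classes. Telomeric repeat bins stayed under 0.002 in every library, and the 56 unmasked Y' bins had 0.0269 and 0.0294 in hst3 hst4 cells, 0.0145 and 0.0173 in rtt109 cells and 0.0289 and 0.0158 in wild-type cells.

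Retrotransposon bins within 20 kb were above 0 more often in the deletions, at values near the step. Of 69 such bins at 2 ends, 64 of them on the left arm of chromosome 3, 25 and 26 were above 0 in hst3 hst4 cells, 37 and 47 in rtt109 cells and 12 and 0 in wild-type cells. Their mean coverage was 0.00401 and 0.00592 in hst3 hst4 cells, 0.00894 and 0.0118 in rtt109 cells and 0.000749 and 0 in wild-type cells. These bins adjoin each other and share transcripts, and no test was made.

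Coverage opposite to the ORFs was low as well. Among 166 members with bins free of ORFs on the other strand, antisense exceeded sense in all 6 libraries for 9. The share of all genes under that rule was not computed. In single libraries antisense exceeded sense for 13.2% to 17.6% of genes at 0 to 10 kb. The share was 6.12% to 9.18% at 10 to 20 kb and 4.33% to 5.28% farther in, and the difference was not tested. ECM34, near the left end of chromosome 8, had the highest antisense mean, 0.643 and 0.408 units in hst3 hst4 cells, 0.453 and 0.532 in rtt109 cells and 0.384 and 0.485 in wild-type cells, against sense values of at most 0.101. The next, YOL164W-A on the left arm of chromosome 15, had antisense coverage of 0.361 and 0.287 in hst3 hst4 cells, 0.214 and 0.207 in rtt109 cells and 0.258 and 0.233 in wild-type cells. The genotypes overlapped for ECM34, whereas the hst3 hst4 libraries were highest and the rtt109 libraries lowest for YOL164W-A. Both were chosen after their values were seen. At 0 to 10 kb the antisense share of both strands was 5.91% and 8.53% in hst3 hst4 cells, 5.69% and 5.44% in rtt109 cells and 8.86% and 5.74% in wild-type cells, against 1.17% to 2.67% over genes farther in.

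Read in tiles of 10 kb from the end, few subtelomeric regions passed. The tile fit gave all tiles the same spread, so the SE of 0.29 and the p-values hold nothing of a tile's own spread. Of the 39 subtelomeric tiles tested, 1 passed in rtt109 cells, where 2.92% of all 2160 tiles did (0.37% higher), and 1 in hst3 hst4 cells, where 0.231% did (0.185% higher). The tile called in rtt109 cells was higher, and its share (2.56%) stands beside 2.92% in either direction but 0.37% higher. A single tile is no measure of enrichment. Between the deletions 1 passed, the outer ORF tile of the right end of chromosome 6, where 0.463% of all tiles did (0.139% lower in hst3 hst4 cells). That outer tile had 1.61 and 1.38 units in hst3 hst4 cells, 3.25 and 4.27 in rtt109 cells and 1.56 and 2.21 in wild-type cells, with log2 0.94 ± 0.29 for the rtt109 deletion (adjusted p = 0.0483). It rests on IRC7, a cysteine-S-conjugate beta-lyase, which had 2.57 and 2.19 in hst3 hst4 cells, 5.26 and 6.95 in rtt109 cells and 2.46 and 3.60 in wild-type cells and did not pass as a gene (log2 1.01, adjusted p = 0.135). The inner ORF tile of the left end of chromosome 6 had 0.692 and 1.02 in hst3 hst4 cells, 0.342 and 0.369 in rtt109 cells and 0.230 and 0.314 in wild-type cells, with log2 1.18 ± 0.29 in hst3 hst4 cells (adjusted p = 0.025). Its wild-type mean lay under the filter level for tiles, so that tile was tested only through its mutant levels and had to differ. Its highest bins are those of YFL057C and AAD6, which RefSeq annotates together as 1 pseudogene of an aryl-alcohol dehydrogenase. YFL057C had 1.86 and 2.74 in hst3 hst4 cells, 0.811 and 0.806 in rtt109 cells and 0.440 and 0.774 in wild-type cells, and AAD6 had 1.47 and 2.40 in hst3 hst4 cells, 0.644 and 0.717 in rtt109 cells and 0.437 and 0.706 in wild-type cells. IRC7, YFL057C and AAD6 were named after their values were seen, and in every alternative that left out an rtt109 or a wild-type library both tiles missed the threshold, as did the left one without replicate 2 of the hst3 hst4 deletion. Neither passed with the larger pseudocount, no filter or the replicate block, nor did the left one with each library centred or in the columns normalized to 1.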

How the data were processed

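The authors deposited strand-specific coverage, a signal in bins of 50 bases that was scaled to the fission yeast spike-in per the file headers, with a second set normalized to 1, and a timing score of unstated unit, per the file headers. Libraries were poly(A) RNA from a stranded kit, per the labels' protocols. The submitters' processing notes name CASAVA 1.7.0; aligner and budding yeast build are not stated, and the meaning of the letter R in 11670 bins is not defined. Coordinates are the table's, except promoters, read from R64 by R64's own annotation. Gene names came from the RefSeq table of R64: 222 of 281 subtelomeric ORFs matched.

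Values per feature are means over usable bins: sense coverage of an ORF (end bins, introns and bins that another ORF of that strand covers left out), noncoding runs of at least 4 bins per strand, and tiles of 10 kb with at least 10 numeric bins. The sense column was the one with most coverage, 97.2% for Watson ORFs and 98.2% for Crick ORFs. Features were tested over the whole genome in limma 3.58.1 (R 4.3.3) on log2 of the value plus a pseudocount, the percentile 5 of values above 0 (0.0587 for genes, 0.00385 for noncoding segments, 0.184 for tiles), without the lowest 10% of features, with all 6 libraries in one fit and Benjamini-Hochberg adjustment per comparison. The gene fit had 3 residual and 37.7 prior degrees of freedom. The tile fit had infinite prior degrees of freedom, so every tile had the same SE. The step of each library is its commonest value above 0; reads span bins, so the number of reads is unknown and no counting interval is given. Zone ratios used exact permutation over libraries. The fits were tested on simulated data. Tables were read with Python 3.11.15.

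Members, gene families and tests were chosen with earlier results of these data known. Genes are named by a rule: members past the threshold, the highest member of each family where none passed, the 5 highest, the 3 nearest to an end and those at the 20 kb border. The noncoding segments named are the 3 with the smallest p per comparison. Replicate numbers were not taken as pairs. Alternatives were another pseudocount, no filter, centring, the columns normalized to 1, a replicate block, single libraries left out, the inner limit of 10 kb, bins at least 200 bases from any ORF, single ends left out and, added after seeing the data, each end left out in turn.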

Additional observations from a re-analysis of the deposited data

Results flagged for a closer look

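Effects that differed between the deletions, by limma with Benjamini-Hochberg adjustment, came up for 4 genes and 1 tile. They are the log2 effect in the hst3 hst4 deletion minus that in the rtt109 deletion. YOL160W differed by 1.66 ± 0.39 (SE, adjusted p = 0.0145), with 1 hst3 hst4 library at 0.773 and the other at 0.280 units. PAD1 differed by 1.57 ± 0.38 (adjusted p = 0.0181) and YEL073C by 1.47 ± 0.37 (adjusted p = 0.0254). SRY1 went the other way, by -1.63 ± 0.37 (adjusted p = 0.0117), as did the ORF bins of the outer 10 kb of the right end of chromosome 6, by -1.22 ± 0.29 (adjusted p = 0.00877). The 2 mutant strains also differ in mating type, RAD5, ADE2 and the Rpb3 tag per the labels, and the part of these in the differences cannot be told apart from that of the deletions. With each library centred 1 gene passed this comparison, with the columns normalized to 1 it was 2, and without either rtt109 library none.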

How the results depend on the processing

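All 8 ratios of a subtelomeric zone to the rest kept their direction under every alternative run; the smallest value was 0.0988 (log2, non-ORF bins at 0 to 10 kb of the hst3 hst4 deletion, mean of log2 per bin) and the largest 0.694. With each of the 32 ends left out in turn, added after seeing the data, they ran between 0.167 and 0.615, and the ratio of ORF bins at 0 to 10 kb in the rtt109 deletion was 0.222 without the right end of chromosome 6. Leaving out bins at 0 in all columns changes every library by the same factor and cannot move these differences. The number of subtelomeric genes past the threshold did not hold as well. With a pseudocount 10 times larger or with no filter it was 0 in all 3 comparisons; with one 10 times smaller it was 10 in the hst3 hst4 deletion against wild type and 7 between the deletions. Within 10 kb it was 2 in the rtt109 deletion, 3 in the hst3 hst4 deletion and 1 between them. Between the deletions, centring gave 1 and the columns normalized to 1 gave 2. With single libraries left out it ran between 0 and 10 in the rtt109 deletion, between 0 and 6 in the hst3 hst4 deletion and between 0 and 6 between them; without either rtt109 library the prior degrees of freedom fell to 4.42, against 37.7 with all 6 libraries. For tiles the rtt109 deletion had 0 with either pseudocount, no filter or the replicate block, 2 with the columns normalized to 1 and between 0 and 3 with single libraries left out. The hst3 hst4 deletion had 0 with the larger pseudocount, no filter, centring, the columns normalized to 1 or the replicate block, 3 with the smaller pseudocount and between 0 and 2 with single libraries left out. The cause of each change was not tested. Noncoding segments stayed at 0 throughout.

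Replicate differences of 2 groups correlated over genes at 0.222, 0.0639 and -0.227. With a single difference per group, these values cannot tell whether libraries of the same number share a batch. A replicate block gave 3 genes in the rtt109 deletion, 6 in the hst3 hst4 deletion and 0 between them; with wild-type numbers crossed it gave 10 in the rtt109 deletion.

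Log2 values of some uncalled genes changed sign. In the rtt109 deletion ARN2 was 0.20 with centring and 0.27 with the columns normalized to 1, ERG13 was 0.048 and 0.17, PRE4 0.11 and 0.23 and RPN12 0.0085 and 0.16. With single libraries left out, rtt109 values ran from -0.18 to 0.40 for YEL073C, -0.41 to 0.44 for COS6, -0.32 to 0.13 for ARN2, -0.027 to 0.53 for ADH6 and -0.54 to 0.039 for ERG13, and hst3 hst4 values from -0.55 to 0.37 for ARR1 and -0.13 to 0.33 for ERG13. Of the subtelomeric genes 32 were at 0 in every library, and whether that reflects depth was not tested.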
